A study of Mus musculus with 21 samples.

Results

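The transcription factors that specify and maintain midbrain dopaminergic neurons were followed in RNA-seq of the midbrain of MPTP-treated mice. They were chosen by name as 9 genes, Nr4a2, Pitx3, En1, En2, Foxa1, Foxa2, Lmx1a, Lmx1b and Otx2. All 9 were present among the 33829 genes of the pre-treatment table and the 55385 genes of the delayed treatment table, and all 9 passed the filter on low counts in both, with 22641 and 21922 genes tested. The study used 21 male C57BL/6 mice aged 6 weeks in 7 groups of 3, all injected intraperitoneally. In the pre-treatment experiment, control mice received ddH2O for 10 days, MPTP mice received ddH2O for 5 days and MPTP (30 mg/kg/day) for 5 days, and irisin and MPTP mice received irisin (200 µg/kg/day) for 5 days before MPTP for 5 days. The delayed treatment experiment (the 2 experiments are called the pre-treatment series and the delayed series here) had control, irisin, MPTP and MPTP and irisin mice at these doses and durations, with irisin given after MPTP and with ddH2O for the other 5 days where only 1 agent was given. The labels give the tissue as midbrain, and the study's methods describe manually dissected nigral tissue of perfused brains.

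MPTP is a neurotoxin that glial cells convert to a cation, which dopaminergic neurons take up through the dopamine transporter and which then blocks mitochondrial respiration. Irisin is a peptide cleaved from the membrane protein FNDC5 of exercising muscle. During development, Otx2 and the engrailed genes pattern the midbrain, Foxa1, Foxa2, Lmx1a and Lmx1b set up the dopaminergic progenitor, and Nr4a2 and Pitx3 switch on the genes of dopamine synthesis and transport. Several of these factors stay on in the adult nigra and are needed for the upkeep of its neurons. None of them is restricted to dopaminergic neurons: Lmx1b, for example, is also required by serotonergic neurons, Otx2 is made by the choroid plexus, and the engrailed genes are expressed in hindbrain and cerebellar cells.

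The nuclear receptor Nr4a2 (also called Nurr1, ENSMUSG00000026826) lies on chromosome 2, bases 57106830 to 57124003, on the minus strand. The homeodomain factor Pitx3 (ENSMUSG00000025229) lies on chromosome 19, bases 46135685 to 46148326, also on the minus strand. The engrailed homeodomain factors are En1 (chromosome 1, bases 120602418 to 120607992, plus strand) and En2 (chromosome 5, bases 28165694 to 28172166, plus strand). The forkhead factors are Foxa1 (chromosome 12, bases 57540628 to 57546916, minus strand) and Foxa2 (chromosome 2, bases 148042877 to 148046969, minus strand). The LIM homeodomain factors are Lmx1a (chromosome 1, bases 167689237 to 167848741, plus strand) and Lmx1b (chromosome 2, bases 33560965 to 33640511, minus strand). The homeodomain factor Otx2 lies on chromosome 14, bases 48657677 to 48667515, on the minus strand. These coordinates are those of the deposited tables. Although the submitters' processing notes name mm9, gene starts and ends equal those of the GRCm38 annotation for 92% and 93.9% of the genes in the 2 tables. Of the transcription factors, only Otx2 differs from that annotation, in both tables. The sources used here do not say whether reads were counted by strand. Pitx3 shares 10 bases with Elovl3 on the other strand, En2 shares 365 bases with Gm43610, and Lmx1b shares 279 bases with Gm38011 in the delayed treatment table. Those 3 neighbours had at most 57, 51 and 4 counts in a mouse.

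Promoters from RefSeq (GRCm38.p6, 250 bases before to 50 bases after a start) were found for 8 of the 9 genes, and En2 had none in the table. Both strands were searched for 5 short motifs: AAAGGTCA, which a single Nr4a2 molecule binds, TGACGTCA (the cyclic AMP response element), TGTTTAC (forkhead factors), TAATCC (Otx and Pitx factors) and TAATTA (many other homeodomain factors, the engrailed and Lmx proteins among them). Of 32851 promoters, 1.51%, 1.79%, 3.65%, 7.06% and 5.29% held them. The 4 promoters below belong to those genes that reached an unadjusted p under 0.05 in at least 1 comparison below, namely Foxa1, Nr4a2, Lmx1a and Otx2, and are written 5′ to 3′ on the strand of the gene, with motif matches in capitals.
Foxa1, chr12:57546062-57546361: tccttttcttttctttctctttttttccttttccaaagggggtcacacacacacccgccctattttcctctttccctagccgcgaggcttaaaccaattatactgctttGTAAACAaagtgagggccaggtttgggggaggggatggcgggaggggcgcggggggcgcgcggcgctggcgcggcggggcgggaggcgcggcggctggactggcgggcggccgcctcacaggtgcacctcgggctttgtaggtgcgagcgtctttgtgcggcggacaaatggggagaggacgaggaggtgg
Nr4a2, chr2:57123954-57124253: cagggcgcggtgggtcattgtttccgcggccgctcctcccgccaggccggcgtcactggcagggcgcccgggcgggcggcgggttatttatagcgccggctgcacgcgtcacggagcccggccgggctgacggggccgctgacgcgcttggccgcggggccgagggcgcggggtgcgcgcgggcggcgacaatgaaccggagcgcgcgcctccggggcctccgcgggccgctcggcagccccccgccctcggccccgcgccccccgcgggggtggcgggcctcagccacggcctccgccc
Lmx1a, chr1:167689308-167689607: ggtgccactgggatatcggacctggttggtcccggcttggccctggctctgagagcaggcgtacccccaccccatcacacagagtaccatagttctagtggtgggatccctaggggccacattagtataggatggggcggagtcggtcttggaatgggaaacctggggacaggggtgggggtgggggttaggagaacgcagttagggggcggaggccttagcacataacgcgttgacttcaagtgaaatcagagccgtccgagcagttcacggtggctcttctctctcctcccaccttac
Otx2, chr14:48665060-48665359: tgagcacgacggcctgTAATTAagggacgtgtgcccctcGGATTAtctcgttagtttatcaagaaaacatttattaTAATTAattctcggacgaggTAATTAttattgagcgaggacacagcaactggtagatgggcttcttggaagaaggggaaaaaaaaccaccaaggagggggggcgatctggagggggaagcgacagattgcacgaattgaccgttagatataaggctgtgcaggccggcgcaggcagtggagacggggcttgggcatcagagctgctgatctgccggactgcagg
The Foxa1 window held a forkhead match at base 110, counted from 1 at the 5′ end. The Otx2 window is the one with the most matches among the 4 listed starts of that gene. It held a match for Otx and Pitx factors at base 40 and TAATTA at bases 17, 77 and 97. Another Otx2 window held TAATTA at base 110, and the remaining ones held none. The shares above are per promoter, so a gene with 4 windows has more chances of a match. The windows of Nr4a2 and Lmx1a, like those of Pitx3, En1, Foxa2 and Lmx1b, held none of the 5 letter strings.

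The total count was 66.7 to 75.6 M per mouse in the pre-treatment series and 48.8 to 77.2 M in the delayed series. Dopaminergic tissue was present in every library, since Th, which makes the dopamine precursor, was measured at 21.3 to 55.1 CPM (counts scaled to library size) in the pre-treatment series and 31.0 to 63.3 CPM in the delayed series. Other tissue was present as well. Tph2, the serotonin-synthesizing enzyme of raphe neurons, ranged from 11.98 to 171 CPM and from 19.4 to 120 CPM, and Ttr, the main transcript of the choroid plexus, from 2.797 to 1539 CPM and from 24.2 to 1550 CPM. In the pre-treatment series, MPTP replicate 2 stood apart, with 1539 CPM of Ttr against 17.2 CPM or less in the other 8 mice, the highest Tph2 and a summed level of 4 cerebellar granule cell markers of 97.4 CPM against 4.6 to 15.3 CPM. In the delayed series, 4 mice had over 1000 CPM of Ttr, namely control replicates 1 and 2, MPTP replicate 3 and MPTP and irisin replicate 2. The part of such tissue in the results below was not tested beyond leaving these mice out.

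The transcription factors were expressed at low levels. Per length, in FPKM (the deposited values per kilobase of gene and library size), En1, Nr4a2 and Otx2 were the highest in control mice of the pre-treatment series, at 3.66 ± 1.03, 3.43 ± 0.092 and 3.15 ± 1.62 (SD, n = 3), and these 3 did not differ beyond their spread. En2 followed at 2.35 ± 0.717 FPKM. Lmx1b at 0.780 ± 0.211 and Foxa1 at 0.689 ± 0.188 FPKM came next, again within their spread, before Lmx1a at 0.429 ± 0.092 and Foxa2 at 0.415 ± 0.0959 FPKM, which overlapped. Pitx3, the factor most closely tied to nigral dopaminergic neurons, was the lowest at 0.166 ± 0.116 FPKM. Control mice of the delayed series had nearly the same order, with En1 at 3.48 ± 0.448, Nr4a2 at 3.26 ± 0.287 and Otx2 at 2.26 ± 0.397 FPKM on top and Pitx3 at 0.295 ± 0.0776 FPKM at the bottom. There Lmx1b reached 1.86 ± 0.784 and Lmx1a 0.835 ± 0.158 FPKM, and the control mice of the 2 series did not overlap for these 2 genes. The series were processed as separate tables, so this difference was not tested.

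**Figure D1:**
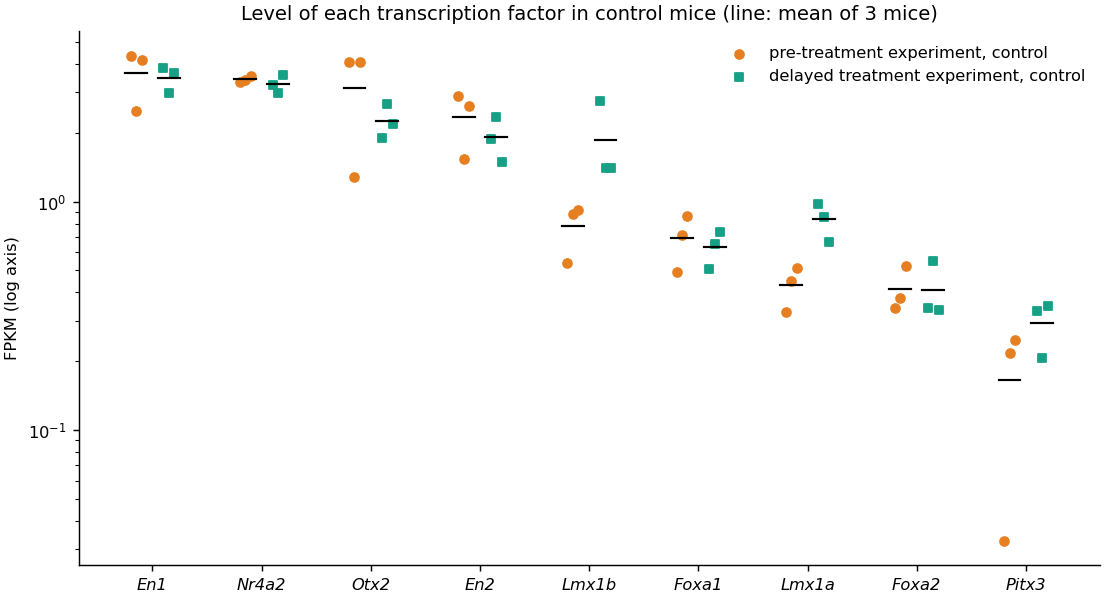
Level of each transcription factor in the 6 control mice, as FPKM on a log axis, with 1 point per mouse and a line at the mean of 3 mice. En1, Nr4a2, Otx2 and En2 sit between 1.29 and 4.36 FPKM in all 6 mice, and Pitx3 is lowest, down to 0.0328 FPKM in 1 mouse.

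Pitx3 rested on few reads. Its counts were 0 to 67 per mouse in the pre-treatment series and 0 to 34 in the delayed series. It had 0 counts in MPTP replicate 3 and irisin and MPTP replicate 3 of the pre-treatment series and in MPTP replicate 3 of the delayed series, which allows up to 0.04, 0.0412 and 0.0516 CPM (3 counts, counting error only). Its counts also differed within groups by more than counting error, as with 26, 67 and 0 in the MPTP mice of the pre-treatment series. Its group means are therefore uncertain, and its standard errors below are the largest of the 9 genes. The other 8 genes had 33 to 1773 counts per mouse in every library.

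The first comparison asks what MPTP did without irisin in the pre-treatment series. No transcription factor passed the quasi-likelihood test of edgeR with Benjamini-Hochberg adjustment over all genes (adjusted p 0.928 to 0.995, against 0.0221% of all genes tested), and none had an unadjusted p under 0.05, against 6.03% of all genes. DESeq2 also called none, against 0.243% of all genes. The median log2 fold change of the 9 genes was 0.21, against 0.00 over all genes. Its sign rested on MPTP replicate 2: without that mouse the median was -0.19, with 5 of the 9 genes negative, and without any other single mouse it was 0.18 to 0.34. Nr4a2 was at 15.3, 16.1 and 15.99 CPM in control mice and at 14.8, 25.4 and 12.8 CPM in MPTP mice. The highest of these belonged to MPTP replicate 2, the library rich in Ttr and Tph2, and the other 2 MPTP mice lay below every control mouse. The same library held the highest Lmx1a, at 4.36 CPM against 0.535 to 2.01 CPM in the other 8 mice, and the highest Pitx3, Lmx1b, En1 and Foxa2 of that series. Slc6a3, the dopamine transporter gene that Nr4a2 and Pitx3 activate, had a log2 fold change of -0.68 (SE 0.234, adjusted p = 0.819), and Th one of -0.25 (SE 0.259, adjusted p = 0.939).

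**Figure D2:**
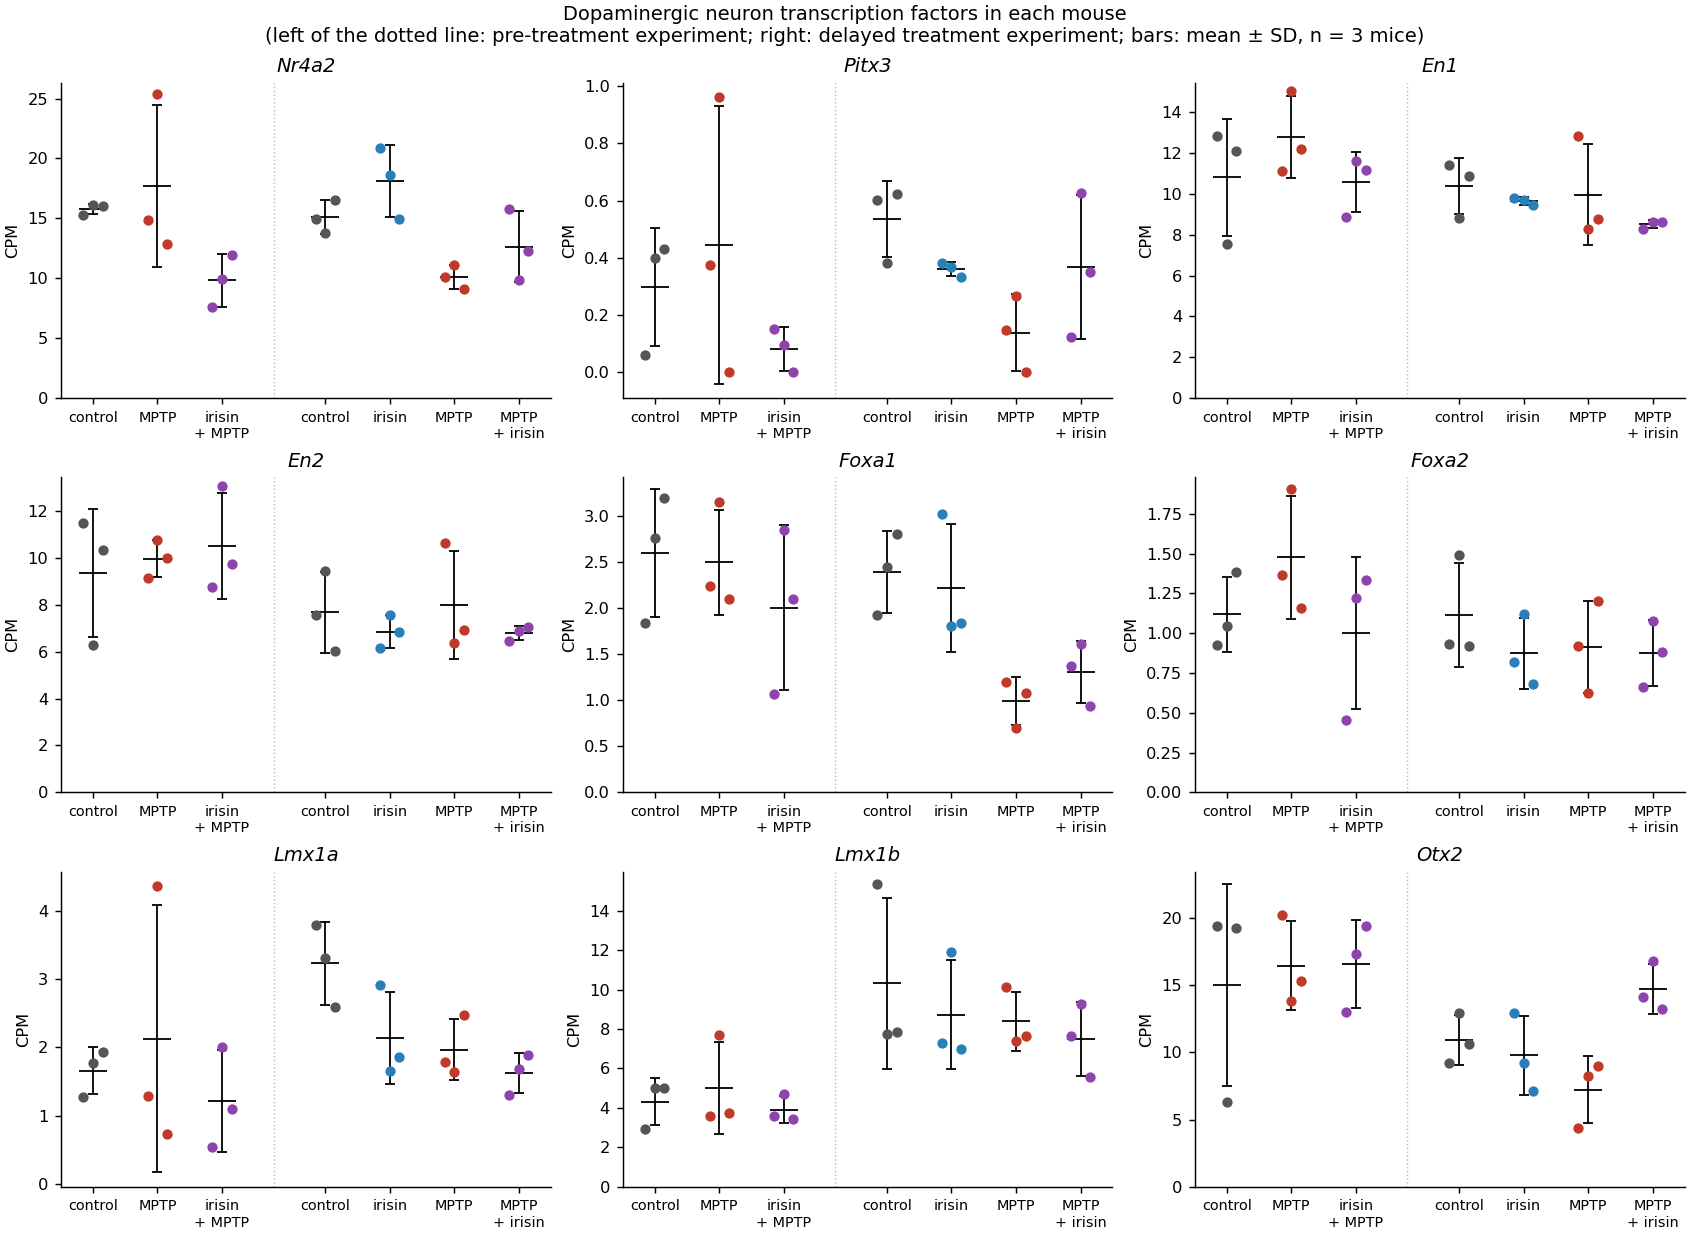
CPM of the 9 transcription factors in each of 21 mice, by group, with 1 point per mouse and bars at the mean ± SD of 3 mice. Foxa1 in the 6 delayed treatment mice given MPTP lies between 0.702 and 1.61 CPM, below the 6 mice not given it, and Nr4a2 is lowest after irisin before MPTP in the pre-treatment series, at 7.55 to 11.95 CPM.

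Nr4a2 had lower values in mice given irisin before MPTP, without passing the adjustment. The 3 irisin and MPTP mice had 7.55, 9.975 and 11.95 CPM. All 3 lay below all 3 MPTP mice and all 3 control mice. Nr4a2 was 1 of 9 transcription factors without overlap in each of these comparisons, and 14.2% and 13.6% of all genes had none. The log2 fold change was -0.85 (SE 0.257) against MPTP mice, with an adjusted p of 0.578 from edgeR, and -0.68 (SE 0.257, adjusted p = 0.648) against control mice, so the difference did not pass the adjustment over all genes. Without MPTP replicate 2, the log2 fold change against MPTP mice was -0.50. Nr4a2 was the only transcription factor with an unadjusted p under 0.05 in either comparison, where 6.22% and 7.12% of all genes had one, and 0.0707% of all genes passed the adjustment in each. DESeq2 called none of the 9 genes, against 0.468% and 0.495% of all genes. The unadjusted p stayed under 0.05 in 11 of 11 alternatives against MPTP mice and in 7 of 11 against control mice. The 2 comparisons share the irisin and MPTP mice. The median log2 fold change of the 9 genes was -0.35 against MPTP mice and -0.16 against control mice, with 0.00 over all genes in both. Leaving out single mice moved these medians between -0.66 (without irisin and MPTP replicate 2) and -0.12 (without MPTP replicate 2), and between -0.38 (without irisin and MPTP replicate 3) and -0.03 (without control replicate 3).

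Among the other 8 genes, Pitx3 was at 0.0597, 0.398 and 0.432 CPM in control mice, 0.374, 0.96 and 0 CPM in MPTP mice and 0.151, 0.095 and 0 CPM in irisin and MPTP mice. These groups overlapped, and the log2 fold change against MPTP mice was -2.41 with an SE of 1.52 (adjusted p = 0.938). Lmx1a, at 0.535, 2.01 and 1.10 CPM after irisin and MPTP, overlapped with both other groups (log2 fold change -0.80 against MPTP mice, SE 0.667, adjusted p = 0.973). En2 and Otx2 had log2 fold changes of 0.08 and 0.01 against MPTP mice. Otx2 was at 12.97 to 19.4 CPM in these 3 mice, and its lowest value of that series, 6.33 CPM, was in control replicate 2, with the other control mice at 19.4 and 19.3 CPM.

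Nr4a2 is an immediate-early gene as well as a lineage factor: it and its relatives Nr4a1 and Nr4a3 respond within the hour to neuronal activity, as do Fos, Fosb, Junb, Egr1, Egr2, Arc and Npas4. Fos, Fosb, Junb, Egr1 and Nr4a1 were below every MPTP and every control mouse in the 3 irisin and MPTP mice, whereas Nr4a3 and Arc overlapped with MPTP mice and Egr2 and Npas4 with control mice. Nr4a3 was at 3.99, 3.57 and 5.10 CPM in irisin and MPTP mice and lower still in 2 of the MPTP mice, at 3.35 and 2.72 CPM. Fos, which encodes a subunit of the AP-1 factor, was at 34.4, 21.3 and 33.5 CPM in control mice, 29.3, 31.5 and 28.4 CPM in MPTP mice and 8.20, 6.22 and 9.89 CPM in irisin and MPTP mice. Fos fell by 1.88 on the log2 scale against MPTP mice (SE 0.216, edgeR adjusted p = 0.021) and against control mice (adjusted p = 0.0349). It was the only gene of the lists examined here that passed the adjustment with edgeR, and 1 of 7 immediate-early genes. The log2 fold changes of all 7 immediate-early genes were negative in both comparisons, with a median of -0.85 and -1.15, and an unadjusted p under 0.05 was found for 4 and 5 of the 7, against the 6.22% and 7.12% of all genes. Nr4a1, a receptor that shares its binding site with Nr4a2, was at 24.04, 14.75 and 21.03 CPM in control mice and at 9.09, 7.78 and 11.0 CPM in irisin and MPTP mice (log2 fold change -1.16 against MPTP mice, SE 0.213, adjusted p = 0.175). The groups did not overlap. The 8 dopaminergic effector genes listed below had a median log2 fold change of -0.27 against MPTP mice, all 8 negative. Against control mice the median was -0.21, with 7 negative and 1 positive, and 0 passed the adjustment in either comparison. Slc6a3 was at 28.3, 37.2 and 25.7 CPM against 51.3, 65.5 and 52.1 CPM in MPTP mice, whereas Th overlapped. What part of the Nr4a2 difference belongs to dopaminergic neurons was not tested.

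**Figure D3:**
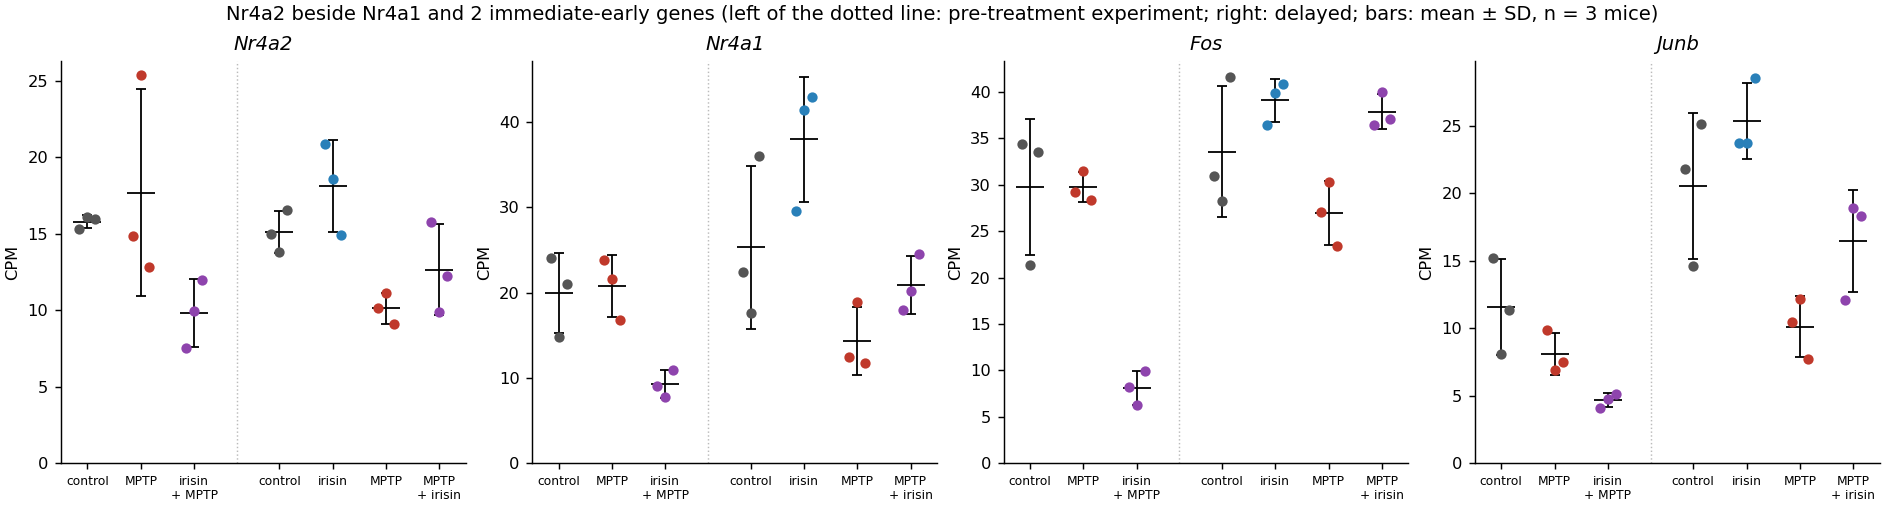
CPM of Nr4a2, Nr4a1, Fos and Junb in each of 21 mice, by group, with 1 point per mouse and bars at the mean ± SD of 3 mice. All 4 genes are lowest after irisin before MPTP in the pre-treatment series, where Fos is at 6.22 to 9.89 CPM against 21.3 to 34.4 CPM in the other 6 mice.

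In the delayed series, Foxa1, Lmx1a and Nr4a2 had the lower values after MPTP, without passing the adjustment. Foxa1, which acts early in the dopaminergic lineage and remains on in adult neurons, was at 1.93, 2.45 and 2.81 CPM in control mice and 1.195, 0.702 and 1.08 CPM in MPTP mice. The log2 fold change was -1.27 (SE 0.31, edgeR adjusted p = 0.277). Nr4a2 was at 14.97, 13.8 and 16.6 CPM in control mice and 10.1, 11.1 and 9.10 CPM in MPTP mice, with a log2 fold change of -0.58 (SE 0.175, adjusted p = 0.398). Lmx1a was at 3.79, 3.31 and 2.59 CPM against 1.78, 1.63 and 2.48 CPM, with a log2 fold change of -0.72 (SE 0.27, adjusted p = 0.498). For each of these genes every MPTP mouse lay below every control mouse. With Pitx3 and Otx2, described next, 5 of the 9 genes had no overlap, and 16.2% of all genes had none. These 3 of 9 genes had an unadjusted p under 0.05, against 8.33% of all genes, and none passed the adjustment, against 0.132% of all genes. Lmx1a kept an unadjusted p under 0.05 in 8 of 12 alternatives, and Foxa1 and Nr4a2 in 12 of 12.

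Pitx3 and Otx2 came close to these. Pitx3 was at 0.6005, 0.383 and 0.624 CPM in control mice and at 0.147, 0.268 and 0 CPM in MPTP mice, and Otx2 at 9.19, 12.9 and 10.6 CPM against 4.36, 8.22 and 9.01 CPM. Neither gene overlapped between the groups, but their log2 fold changes of -1.91 (SE 0.911, adjusted p = 0.619) and -0.60 (SE 0.276, adjusted p = 0.599) did not pass an unadjusted p of 0.05. Foxa2, Lmx1b, En1 and En2 overlapped, with log2 fold changes of -0.29, -0.30, -0.06 and 0.06. The median over the 9 genes was -0.58, against 0.00 over all genes, and -0.60 to -0.46 without single mice. With DESeq2, 5 of the 9 genes had an unadjusted p under 0.05, against 6.21% of all genes, and Foxa1 passed the adjustment (adjusted p = 0.0483) where 0.452% of all genes did. In bulk tissue, fewer dopaminergic neurons, less of a transcript per neuron and a different share of other tissue cannot be told apart. The 7 immediate-early genes had a median log2 fold change of -0.16 in this comparison, 5 of them negative and 2 positive. Junb was lower in every MPTP mouse than in every control mouse, and Arc was higher in every one. What part of the Nr4a2 difference goes with neuronal activity was not tested.

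MPTP was given to 6 mice of this series, with and without irisin, and averaging over irisin compares them with the 6 mice not given it. Foxa1 was at 1.38, 1.61 and 0.94 CPM in MPTP and irisin mice and at 3.02, 1.81 and 1.84 CPM in irisin mice. With these mice added, the 6 mice given MPTP all lay below the 6 others. Foxa1 was 1 of 9 transcription factors without overlap in this split, and 0.525% of all genes had none. Its averaged log2 fold change was -1.02 (SE 0.218, edgeR adjusted p = 0.239). Nr4a2 was at 15.8, 9.89 and 12.2 CPM in MPTP and irisin mice and at 20.9, 18.6 and 14.9 CPM in irisin mice, with 1 MPTP and irisin mouse above 3 of the mice not given MPTP, and its averaged log2 fold change was -0.55 (SE 0.124, adjusted p = 0.264). Lmx1a had one of -0.56 (SE 0.192, adjusted p = 0.617). The 9 genes again had 3 with an unadjusted p under 0.05, against 6.95% of all genes, and none that passed the adjustment, against 0.1%. With DESeq2, Foxa1 (adjusted p = 0.0119) and Nr4a2 (adjusted p = 0.0152) passed, where 0.341% of all genes did. Th, which these factors activate, also had no overlap in this split, and its averaged log2 fold change was -0.64 (SE 0.101, edgeR adjusted p = 0.0508).

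The 4 mice rich in Ttr were left out in a further fit, chosen after the data were seen. Control mice then had 1 library, which was assumed to vary like the other groups. The log2 fold change of Foxa1 after MPTP was -1.57 and that of Nr4a2 -0.64, and averaged over irisin they were -1.25 and -0.51. Neither gene passed the adjustment, and Lmx1a had a log2 fold change of -0.60 after MPTP.

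Irisin alone was compared with ddH2O in mice without MPTP. The median log2 fold change of the 9 genes was -0.16, against 0.00 over all genes, and -0.31 to -0.09 without single mice. Lmx1a, at 2.91, 1.66 and 1.85 CPM against 3.79, 3.31 and 2.59 CPM in control mice, overlapped with the controls in 1 mouse. It was the only transcription factor with an unadjusted p under 0.05 (log2 fold change -0.59, SE 0.27, edgeR adjusted p = 0.554), against 8.97% of all genes. The unadjusted p stayed under 0.05 in only 3 of 12 alternatives, with log2 fold changes of -0.88 to -0.28. Without the mice rich in Ttr its log2 fold change was -0.28. No transcription factor passed the adjustment, against 0.109% of all genes, and with DESeq2 none did either, against 0.347%. Nr4a2 had a log2 fold change of 0.26 (SE 0.174, adjusted p = 0.674), with 2 of the 3 irisin mice above every control mouse.

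Delayed irisin after MPTP was compared with MPTP alone, the question being whether irisin changed these factors once MPTP had acted. Otx2, which patterns the midbrain and marks ventral tegmental more than nigral dopaminergic neurons, was at 14.1, 16.8 and 13.2 CPM in MPTP and irisin mice. All 3 lay above the 3 MPTP mice, the highest of which had 9.01 CPM, and above the control and irisin mice, the highest of which had 12.9 CPM. It was 1 of 9 transcription factors without overlap with MPTP mice and 1 of 3 without overlap with irisin mice, where 10.7% and 8.69% of all genes had none. The log2 fold change was 1.03 (SE 0.277, edgeR adjusted p = 0.9995). Otx2 was the only transcription factor with an unadjusted p under 0.05, against 3.9% of all genes, and none passed the adjustment, against 0.00456% of all genes. DESeq2 called none, against 0.0748% of all genes. The choroid plexus, which makes Otx2, was unevenly present here, since MPTP and irisin mice had 151, 1550 and 534 CPM of Ttr and MPTP mice 24.2, 73.7 and 1444 CPM. Without the mice rich in Ttr the log2 fold change of Otx2 was 1.12. The remaining MPTP and irisin mice, at 151 and 534 CPM of Ttr, still had more than the remaining MPTP mice, at 24.2 and 73.7 CPM. This fit therefore cannot separate Otx2 from the share of choroid plexus, which was not tested. Over both series, the mouse with the most Otx2 was also the one with the most Ttr in 3 of 7 groups. Of 20769 genes, 44.5% matched or exceeded this count, which was chosen after the values were seen.

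The interaction asks whether MPTP acted differently with and without irisin in the delayed series. Otx2 had an interaction of 1.19 on the log2 scale (SE 0.389, edgeR adjusted p = 0.893). It was the only transcription factor with an unadjusted p under 0.05, against 5.57% of all genes, and none passed the adjustment, against 0.0411%. DESeq2 called none, against 0.174%. Foxa1 had 0.51 (SE 0.432) and Nr4a2 0.06 (SE 0.247), with adjusted p of 0.949 and 0.996. The log2 fold change of Nr4a2 between MPTP and irisin mice and MPTP mice was 0.32 (SE 0.175) and that of Foxa1 0.40 (SE 0.309), and both genes overlapped between these groups. Pitx3, at 0.125, 0.628 and 0.35 CPM in MPTP and irisin mice, overlapped as well (log2 fold change 1.36, SE 0.908). The median over the 9 genes for MPTP and irisin against MPTP mice was -0.06, and without single mice it lay between -0.24 and 0.19.

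**Figure D4:**
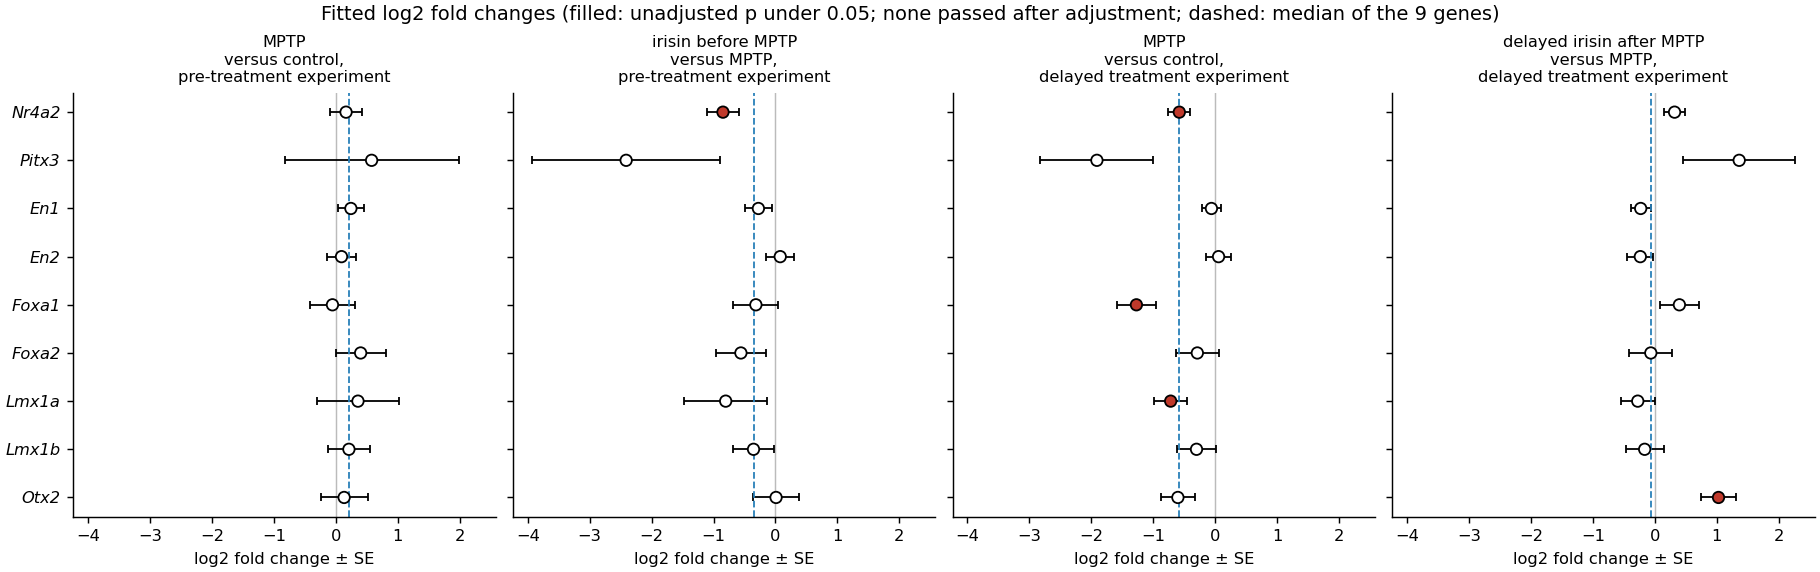
Fitted log2 fold change ± SE of the 9 transcription factors in 4 comparisons, with filled points for an unadjusted p under 0.05 and a dashed line at the median of the 9 genes. No point passed the adjustment over all genes, and the dashed line is at -0.58 for MPTP versus control in the delayed series and at 0.21 in the pre-treatment series, where it was -0.19 without MPTP replicate 2.

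The engrailed genes differed least. Over the 8 comparisons of both series, the log2 fold changes of En1 lay between -0.28 and 0.24 and those of En2 between -0.23 and 0.17. All MPTP and irisin mice had less En1 (8.31, 8.63 and 8.62 CPM) than all irisin mice (9.81, 9.72 and 9.45 CPM). This pair is not among the 8 comparisons, and 3 of the 9 genes and 8.69% of all genes had no overlap in it. En1, which protects adult nigral neurons, was at 7.54 to 15.1 CPM in the pre-treatment series and 8.30 to 12.8 CPM in the delayed series, and its relative En2 at 6.30 to 13.1 CPM and 6.02 to 10.7 CPM. For both genes the lowest mouse of the pre-treatment series was control replicate 2 and the highest mouse of the delayed series was MPTP replicate 1. Foxa2, the partner of Foxa1, lay between 0.452 and 1.91 CPM and between 0.625 and 1.49 CPM, and its groups overlapped throughout. Foxa2 had fewer counts than Foxa1, 33 to 133 per mouse in the pre-treatment series and 37 to 78 in the delayed series. Lmx1b spread widely within every group of the delayed series. It was at 15.3, 7.77 and 7.86 CPM in control mice, 7.28, 11.9 and 6.997 CPM in irisin mice, 10.1, 7.37 and 7.66 CPM in MPTP mice and 7.65, 9.28 and 5.55 CPM in MPTP and irisin mice.

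The factors were next related to their targets across mice. The targets were 8 dopaminergic effector genes: Th, Ddc and Gch1 of dopamine synthesis, the transporters Slc6a3 and Slc18a2, the receptors Ret and Drd2, and Aldh1a1, which clears dopamine aldehydes. Their mean log2 CPM and that of each factor were centred on the group means, so that only the differences among the mice of a group remained, and 18 relations were tested with exact permutations within groups. In the pre-treatment series (9 mice), Lmx1b followed the effector genes most closely, with Pearson's r = 0.953 (two-sided exact permutation p = 0.0278, adjusted p = 0.167) and Spearman's rho = 0.9 (exact permutation p = 0.0324, adjusted p = 0.146). Lmx1a (r = 0.839, exact permutation p = 0.0139, adjusted p = 0.125) and Foxa1 (r = 0.838, exact permutation p = 0.00926, adjusted p = 0.125) came next, with rho of 0.833 and 0.85 (exact permutation p = 0.0278 and 0.00926). Without the 2 mice farthest from the median, control replicate 1 and MPTP replicate 2, r was 0.913, 0.825 and 0.83. The exact permutation p of these r were 0.25, 0.125 and 0.0833, with an adjusted p of 0.562 for each. Nr4a2, Foxa2 and Pitx3 had r of 0.672, 0.665 and 0.553, En1 and En2 0.254 and 0.145, and Otx2 -0.218.

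In the delayed series (12 mice), Lmx1b again had the highest r of the 9 genes, 0.546 (exact permutation p = 0.0478, adjusted p = 0.183), with rho = 0.734 (exact permutation p = 0.00694, adjusted p = 0.0833). Without the 2 mice farthest from the median, MPTP replicates 2 and 3, its r was 0.777 (exact permutation p = 0.0139, adjusted p = 0.25). Foxa1 had r = 0.524, Foxa2 0.478, En1 0.326, Lmx1a 0.248 and En2 0.132. Otx2 had r = -0.0226, Pitx3 -0.391 and Nr4a2 -0.41 (exact permutation p = 0.28, adjusted p = 0.504). None of the 18 relations passed the adjustment, by either measure. The pre-treatment series allows only 216 orders of its mice within groups. A single relation there could not pass the adjustment over 18 relations even at the smallest possible p. Fewer orders still remain where 2 mice are left out.

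Lmx1b also followed a serotonergic marker. In 6 of the 7 groups the mouse with the most Lmx1b was also the one with the most Tph2, which 1.09% of 20769 genes matched or exceeded. This count was chosen after the values were seen. In the delayed series these mice were control replicate 1 (15.3 CPM of Lmx1b and 103 CPM of Tph2), irisin replicate 2 (11.9 and 79.55 CPM), MPTP replicate 1 (10.1 and 120 CPM) and MPTP and irisin replicate 2 (9.28 and 73.7 CPM). Of the effector genes, Gch1, Ddc and Slc18a2, which serotonergic neurons also use, had the same highest mouse as Tph2 in 7 of 7 groups, whereas the dopamine transporter gene Slc6a3 did in 2. Lmx1a behaved otherwise: its highest mouse was that of Th in 6 of 7 groups (matched or exceeded by 1.14% of genes) and that of Tph2 in 4. En1 and Foxa1 shared their highest mouse with Tph2 in 5 groups each (matched or exceeded by 5.74% of genes), En2 and Foxa2 in 4 each and Pitx3 in 3. Nr4a2 and Otx2 did in 1 group each, and with Th in 1 group each.

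**Figure D5:**
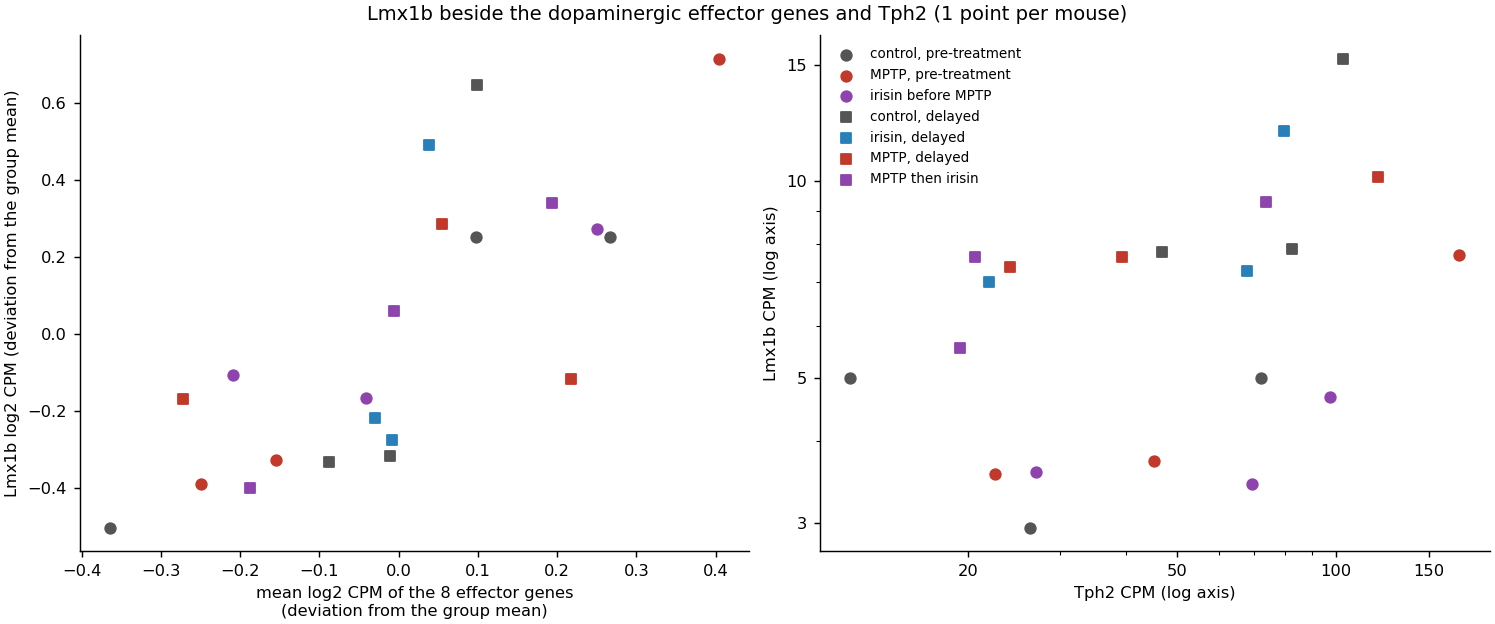
Lmx1b in each of 21 mice beside the dopaminergic effector genes (left, log2 CPM as the deviation from the group mean) and beside Tph2 (right, CPM on log axes). On the left, Lmx1b is higher in mice with more of the effector genes, and on the right the highest Lmx1b of each delayed treatment group, 9.28 to 15.3 CPM, is found at 73.7 to 120 CPM of Tph2.

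The genes most like each factor were found by Pearson's r of centred log2 CPM over the 21 mice, among 21153 genes tested in both series. Mice of a group share their treatment and all libraries share the dissection, so these r are descriptions. Th was the gene most like Lmx1a (r = 0.835), ahead of the cilium genes Cfap52 and Drc7 (0.825 each). Gch1, which makes the cofactor of Th and Tph2, was the third most like Lmx1b (0.852), after Mansc4 (0.873) and Mavs (0.87). Dlk1, a target of Nr4a2 and Pitx3 in dopaminergic neurons, was the third most like Pitx3 (0.812), after Parp3 (0.842) and Lnx2 (0.834). Foxa1 was most like Gm35549 (0.938), Spag16 (0.866) and Ccdc121 (0.826), and Foxa2 most like C5ar1 (0.865), Eps8l1 (0.855) and Slc25a24 (0.842). Otx2 was most like Zfp423 (0.899), Wscd2 (0.879) and Mc3r (0.852). En1 was most like Stk32b (0.86), Gchfr (0.852) and Marcksl1 (0.844), and En2 most like Fbxo42 (0.838), Ankrd23 (0.82) and Myo1h (0.804). Nr4a2 was most like Ehbp1l1 (0.847), Hist1h2bn (0.838) and Nutm1 (0.798). Among the factors themselves, En1 and En2 were the closest pair (r = 0.701), followed by Foxa1 and Foxa2 (0.655), Foxa1 and Lmx1a (0.642) and Foxa2 and Lmx1a (0.639), while Lmx1b and Otx2 had r = -0.351.

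Other genes of the pathway gave no call in any comparison. Of the 8 effector genes, 5 had an unadjusted p under 0.05 for MPTP versus control in the delayed series, namely Th, Slc6a3, Ret, Drd2 and Aldh1a1, and their list had a median log2 fold change of -0.40, where 8.33% of all genes had such a p. Averaged over irisin, 7 of 8 had one, all but Gch1, against 6.95% of all genes, with a median of -0.42, and 0 passed the adjustment. Slc6a3 had an averaged log2 fold change of -1.11 (SE 0.262, adjusted p = 0.284), and in the pre-treatment series one of -1.57 for irisin before MPTP versus control (SE 0.238, adjusted p = 0.0886). In the 4 other targets of Nr4a2 and Pitx3 (Dlk1, Ptpru, Klhl1 and Vip), the medians after MPTP were 0.08 in the pre-treatment series and -0.11 in the delayed series, and Dlk1 had the widest range, 13.3 to 112 CPM and 34.8 to 139 CPM. Of 13 lineage and patterning regulators 11 were tested, and at most 1 had an unadjusted p under 0.05 in any of the 8 comparisons. The partner receptors of Nr4a2, Rxra, Rxrb and Rxrg, had no adjusted call, and Rxra was at 39.0 to 46.7 CPM and 62.5 to 71.0 CPM. The lists of other cell types given here had no adjusted call either, with choroid plexus markers at a median log2 fold change of 2.30 for MPTP versus control in the pre-treatment series and -0.65 in the delayed series, serotonergic markers at 1.08 and -0.44, and cerebellar granule cell markers at 2.20 and -0.57. The medians of the red nucleus and tectal, striatal, general neuron and glial and vascular lists lay between -0.17 and -0.03 in the pre-treatment series and between -0.20 and 0.05 in the delayed series. Averaged over irisin, the median was -0.46 for serotonergic markers, 0.45 for choroid plexus and 0.44 for cerebellar granule cell markers.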

How the data were processed

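RNA-seq counts of 21 mice were analysed. The authors counted reads per gene with featureCounts and deposited raw counts with FPKM values, and the submitters' notes name HISAT, StringTie and edgeR; the annotation, strand setting and role of each tool are not given in the sources used here. Mice were grouped by the labels. Tests were run on the deposited counts with edgeR 4.0.16 under R 4.3.3 (filterByExpr, minimum count 10 and minimum total 15, TMM scaling, two-sided quasi-likelihood test, all groups of an experiment in 1 fit, threshold 0.05 after Benjamini-Hochberg adjustment over all genes tested). The SE is the log2 fold change divided by the square root of F. CPM use TMM library sizes, and relations use log2 CPM with a prior count of 2. The deposited FPKM served only to compare levels between genes. The 9 genes and all lists were chosen with earlier results of these data known. Of other lists, genes were named for the highest CPM or a call, and others after their values were seen. The gene so named among the lineage and patterning regulators, and 1 marker list of another cell type, are not reported here. No pair of mice in a group had counts within sampling noise (smallest chi-square per gene 36.9 over 21 pairs). P-values measure the spread between the mice of a group only. Scripts were tested on simulated data. Alternatives were DESeq2 1.42.0 without a filter, all genes with any count, median ratio scaling, only the 2 compared groups, a replicate block, leaving out each mouse and, added after the data were seen, leaving out mice with over 1000 CPM of Ttr. The tables' annotation columns were not used.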

Additional observations from a re-analysis of the deposited data

Results flagged for a closer look

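The differences of Otx2 between mice with and without MPTP had opposite signs with and without irisin in the delayed treatment experiment. Otx2 was flagged for this pattern in the same mice, so the pattern is a description. The log2 ratio of its mean CPM was -0.601 between MPTP and control mice, with all 3 MPTP mice below all 3 control mice, and 0.589 between MPTP and irisin mice and irisin mice, with all 3 of the former above all 3 of the latter. The interaction itself was 1.19 on the log2 scale (SE 0.389) and did not pass the quasi-likelihood test of edgeR (Benjamini-Hochberg) (adjusted p = 0.893; 0.465 to 1 over 17 alternatives). The levels were 10.9 ± 1.88 CPM in control, 9.78 ± 2.93 in irisin, 7.20 ± 2.49 in MPTP and 14.7 ± 1.86 in MPTP and irisin mice (SD, n = 3). Promoter matches of Otx2 and the Ttr level of these mice stand beside the result above, and the part of choroid plexus tissue was not tested beyond leaving out the mice rich in Ttr, where the interaction was 1.24. The mice that remained still differed in Ttr, with 24.2 and 73.7 CPM in MPTP mice and 151 and 534 CPM in MPTP and irisin mice. That fit therefore cannot separate Otx2 from the share of choroid plexus.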

How the results depend on the processing

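Counts of transcription factors that passed the adjusted threshold stayed at 0 under 101 of 103 alternatives. The exceptions were both DESeq2 without a filter: 1 of 9 for MPTP versus control in the delayed treatment experiment (Foxa1) and 2 of 9 for MPTP averaged over irisin (Foxa1 and Nr4a2). Leaving out single mice gave 0 calls in each of the 8 comparisons. The 11 log2 fold changes with an unadjusted p under 0.05 kept their sign under all 150 alternatives and an unadjusted p under 0.05 under 131 of them. It was kept least often by Lmx1a for irisin alone (3 of 12), Nr4a2 for irisin before MPTP versus control (7 of 11) and Lmx1a for MPTP versus control in the delayed treatment experiment (8 of 12). The other 61 changed sign in 69 of 777. The adjusted p of Foxa1 for MPTP averaged over irisin ranged from 0.0119 to 0.58 and that of Nr4a2 from 0.0152 to 0.708. The cause of the difference between edgeR and DESeq2 was not tested. Relations passed in 0 cases under every alternative, but with 216 orders or fewer a single relation of the pre-treatment experiment could not pass. Those that changed sign were, not centred, En2 in the pre-treatment experiment (r = -0.0193) and Nr4a2 (0.442) and Pitx3 (0.265) in the delayed treatment experiment, and, without the 2 mice farthest from the median, Otx2 in the pre-treatment experiment (0.0748) and Pitx3 (0.469) and Lmx1a (-0.138) in the delayed treatment experiment.

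Replicate numbers did not pair the mice: 1 of 9 and 0 of 18 pairs of same-numbered mice had a correlation of their deviations above 0.1 (highest 0.101 and 0.0387). A fit with the replicate number as a block called 0 of the 9 genes in all 8 comparisons, as without it. Pitx3 had the lowest depth, 0 to 67 counts per mouse.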
